A study of Mus musculus with 2 samples.

Results

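Bone morphogenetic proteins (BMPs), their receptors, antagonists, signal transducers and target genes were compared between 2 teratoma libraries. The genes were taken by symbol from the deposited table, where all 36 were listed among 45777 genes. They comprised 10 ligands, 7 receptors, 8 antagonists or extracellular modulators, 5 Smads and 6 target genes. One library came from teratomas of E14 cells, a wild-type mouse embryonic stem cell (ESC) line. The other came from teratomas of E14-Sox2TA/WT cells, in which CRISPR/Cas9 editing placed the T258A change, alanine for threonine at residue 258, on 1 allele of Sox2 and left the other allele wild type. The edited cells were picked as colonies grown from single cells. These clones were grown and maintained with 2i, a pair of inhibitors, and were used after 2i was removed. For E14 cells the study's methods describe culture with serum and leukemia inhibitory factor (LIF). Any part of this culture history in the differences below cannot be told apart from the genotype. Both lines were inoculated subcutaneously with Matrigel into BALB/c-nu mice, 3 mice per group, with harvest after 14 days. BALB/c-nu mice lack a thymus and mature T cells but keep other blood cells, and teratomas contain host vessels and blood cells as well as the injected cells. How many tumours entered each library is not given in the sources used here. With 1 library per group there is no replicate check, no p-value and no SD, and every difference below compares these 2 libraries.

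BMPs are secreted ligands of the transforming growth factor β superfamily. A ligand dimer binds type I and type II receptor kinases, the type I receptor phosphorylates Smad1, Smad5 and Smad9, and these enter the nucleus with Smad4 to act on genes such as the Id family. Secreted antagonists such as Noggin, Chordin and Follistatin bind the ligands and keep them from the receptors. In the early embryo BMP signaling opposes neural differentiation of ectoderm and favours epidermis and ventral mesoderm, later it drives cartilage and bone formation, and in cultured mouse ESCs BMP with LIF sustains self-renewal through Id genes.

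The files hold 50529171 reads on genes for the E14 library and 49030281 for the E14-Sox2TA/WT library. Levels are given in TPM, a share of all transcripts that is scaled for transcript length. The ratio of TPM, E14-Sox2TA/WT over E14, was 0.871 times the ratio of FPKM for every gene, so differences near a threshold depend on the unit. The interval after each ratio has 95% coverage by the Clopper-Pearson method for the reads of a gene, carried over to the TPM ratio, and covers counting error only. Sox2 had 14585 and 8623 reads, and its alleles are not separated in the files. The libraries also differed in ways that touch the genes below. In the E14-Sox2TA/WT library, 4 Y-linked genes had 0 reads, which allows at most 3, against 5453 reads in the E14 library. Relative to all genes with a TPM of at least 1, the median log2 ratio of genes on chromosome 8 was -0.43. It was 0.41 on chromosome 15 and 0.25 on chromosome 13. Across hand-made marker lists, 10 of 10 neuron genes and 6 of 6 neural progenitor genes were lower in TPM, whereas 8 of 8 pluripotency genes and 8 of 8 visceral endoderm and liver genes were higher.

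A DEG rule after the study's methods, a fold change above 2 where either library reached 10 TPM, was applied here to the TPM ratio, a unit that the methods do not name for the fold change. It called 2 of the 36 BMP genes lower and 0 higher with E14-Sox2TA/WT. The lower ones were Id4 and Smad1. Of the 36 genes, 17 reached 10 TPM in at least 1 library and could be called at all. Over all 11578 genes that could be called, the same rule gave 10.8% higher and 18.7% lower, so 11.8% of the 17 BMP genes were called lower against that background. On the log2(TPM + 1) scale, the 34 BMP genes that reached 1 TPM had a median difference of 0.097, beside -0.058 over all 18558 such genes. A TPM ratio above 1 was found for 20 of these 34 genes, beside 47.5% of all 18558. By FPKM it was found for 22 of the 34, beside 55.5%. These shares are the background for counts of direction by role and by marker list. The median size of the log2 ratio without its sign was 0.44 for the BMP genes and 0.62 for all genes. On the TPM scale, the counting interval lay wholly above 1 for 17 of the 36 genes, wholly below 1 for 14 and across 1 for 5. In reads per library total it lay above 1 for 20 and below 1 for 10. These counts include BMP genes below 1 TPM, whereas over all genes that reached 1 TPM the shares were 49.1% and 37.8%. Such shares over all genes were not computed on the TPM scale. At a fold change above 1.5, 4 BMP genes passed upward (Bmp4, Fst, Id1 and Msx1) and still 2 downward, beside 18.2% and 32.3% of all genes at 10 TPM or more.

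**Figure D1:**
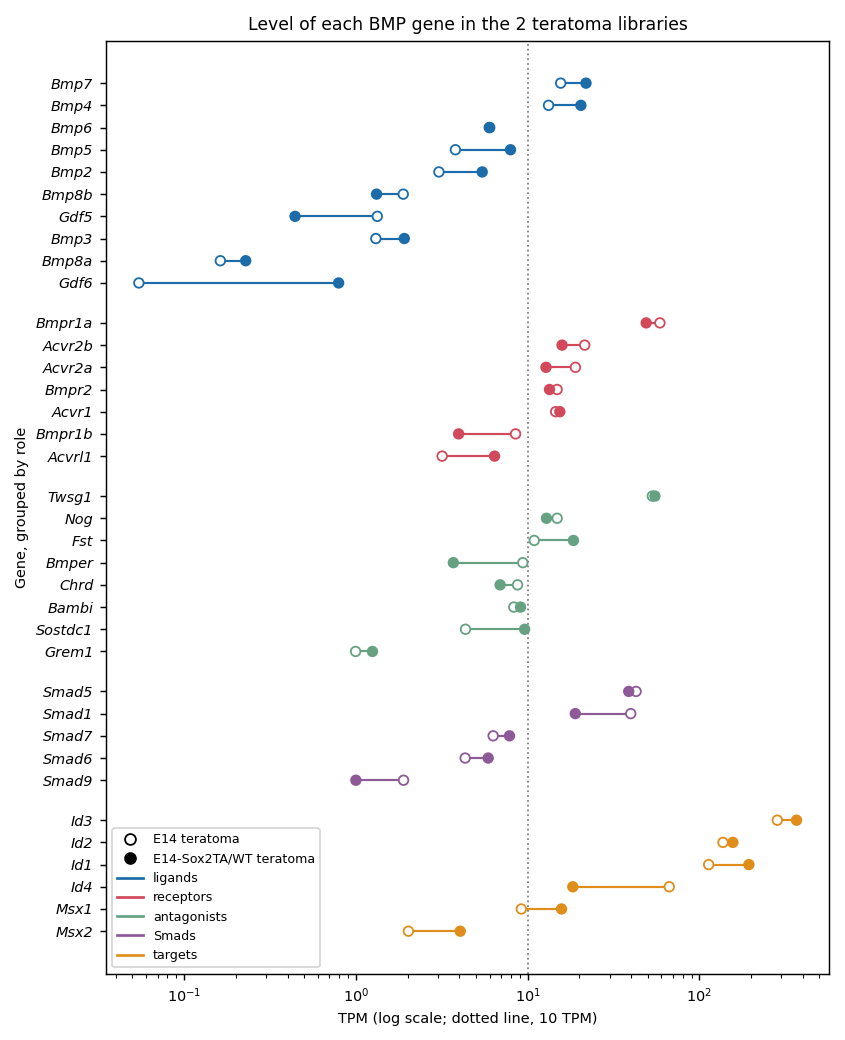
Level of each of the 36 BMP genes in TPM on a log axis, grouped by role, with the E14 teratoma library as open circles and the E14-Sox2TA/WT teratoma library as filled circles joined by a line. For Id4 the filled circle lies left of the open one, at 18.3 against 66.8 TPM, as for Smad1 at 18.9 against 39.8, while for the other Id genes it lies to the right.

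Among the ligands, the summed level was 46.4 TPM in the E14 library against 66.4 TPM with E14-Sox2TA/WT, a ratio of 1.43, or 1.64 by FPKM. Of the 10 ligands, 8 had a TPM ratio above 1, and 0 passed the DEG rule in either direction. Among the 8 ligands that reached 1 TPM, 6 had a ratio above 1, beside 47.5% of all such genes. Only Bmp4 and Bmp7 reached 10 TPM. Bmp7, a ligand known from kidney and eye development, had 15.6 and 21.9 TPM (1376 and 2157 reads), a ratio of 1.40 (1.31 to 1.504). Bmp4, the ligand best known for inducing mesoderm and opposing neural fate, had 13.2 and 20.4 TPM (656 and 1130 reads), a ratio of 1.54 (1.40 to 1.70). Each held more of the summed ligand TPM than any other ligand, Bmp4 at 28.5% for E14 and 30.8% for E14-Sox2TA/WT, and Bmp7 at 33.6% and 32.9%.

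The ligands below 10 TPM went in both directions. Bmp5 had 3.80 and 7.95 TPM (350 and 818 reads), a ratio of 2.09 (1.84 to 2.38). Bmp2, a strong inducer of bone, had 3.04 and 5.44 TPM (262 and 522 reads), a ratio of 1.79 (1.54 to 2.08). Bmp6, by contrast, stood at 5.98 and 6.02 TPM (432 and 485 reads). Bmp5 is encoded on the strand opposite a noncoding transcript with which it shares 1878 exon bases, and Bmp6 shares 224 exon bases with Txndc5, which had 12040 and 11011 reads, so without strand information the source of reads in the shared bases cannot be told apart. In all, 11 of the 36 genes share exon bases with a gene on the opposite strand, among them Bmp8b and Gdf5 of the ligands, the latter over 936 bases. Bmp3, which can act against other BMPs in bone, had 1.31 and 1.91 TPM (196 and 322 reads). Bmp8b had 1.89 and 1.32 TPM (149 and 127 reads), and its close paralog Bmp8a had 0.163 and 0.228 TPM (10 and 15 reads), so the split of reads between these genes is uncertain. The growth and differentiation factors linked to joints, Gdf5 and Gdf6, differed in opposite directions at very low levels. Gdf5 had 1.33 and 0.442 TPM (75 and 28 reads), and Gdf6 had 0.0545 and 0.794 TPM (5 and 76 reads), a ratio of 14.6 whose interval ran from 5.97 to 46.1.

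The 7 receptors had a summed level of 140 TPM in the E14 library against 117 TPM with E14-Sox2TA/WT, a ratio of 0.832, or 0.955 by FPKM. A TPM ratio below 1 was found for 5 of them, although Bmpr2 had a ratio of 1.04 by FPKM, and 0 passed the DEG rule. Bmpr1a, the widely expressed type I receptor, was the most abundant receptor in both libraries, with 58.9 and 49.003 TPM (8023 and 7446 reads), a ratio of 0.832 (0.806 to 0.859). The 3 type II receptors came next in the E14 library, but with E14-Sox2TA/WT the type I receptor Acvr1 stood above Acvr2a and Bmpr2. Acvr2b had 21.5 and 15.9 TPM (5553 and 4640 reads), Acvr2a had 19.0 and 12.8 TPM (2545 and 1953 reads), and Bmpr2 had 14.8 and 13.4 TPM (3924 and 3974 reads). Acvr2a shares 446 exon bases with Orc4 on the opposite strand, which had 1530 and 2864 reads. Acvr2a and Acvr2b also serve activin and Nodal ligands, whereas Bmpr2 mainly serves BMPs. Relative to the reads of Bmpr2, those of Acvr2a were 0.758 times as many in the E14-Sox2TA/WT library as in the E14 library (0.703 to 0.816), a comparison that library scaling does not touch. Acvr1, a type I receptor, had 14.6 and 15.4 TPM (986 and 1185 reads).

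The less abundant type I receptors stood further apart. Bmpr1b, a receptor of neural progenitors and of cartilage condensations, had 8.51 and 3.96 TPM (1089 and 571 reads), 2.15-fold lower (1.94 to 2.38). Acvrl1, the endothelial type I receptor, had 3.18 and 6.42 TPM (281 and 634 reads), a ratio of 2.02 (1.75 to 2.33). Neither gene reached 10 TPM, so the DEG rule did not apply to them. Within the type I receptors, the share of summed TPM held by Bmpr1b was 9.99% in the E14 library against 5.30% with E14-Sox2TA/WT, while that of Acvrl1 was 3.73% and 8.58%. Acvrl1 lies on chromosome 15, where the median of all genes was also higher. Of 10 endothelial marker genes, 8 had a TPM ratio above 1 with a summed level of 134 TPM in the E14 library against 169 TPM with E14-Sox2TA/WT, and none was at 0. Their counting interval on the TPM scale lay above 1 for 5, and below 1 for 2, Cdh5 at a ratio of 0.924 and Kdr at 0.753. Egfl7 alone had 19.3 and 43.6 TPM. The part of chromosome 15 or of endothelial cells in the value of Acvrl1 was not tested. In bulk tissue, fewer cells of a type and less RNA per cell cannot be told apart.

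**Figure D2:**
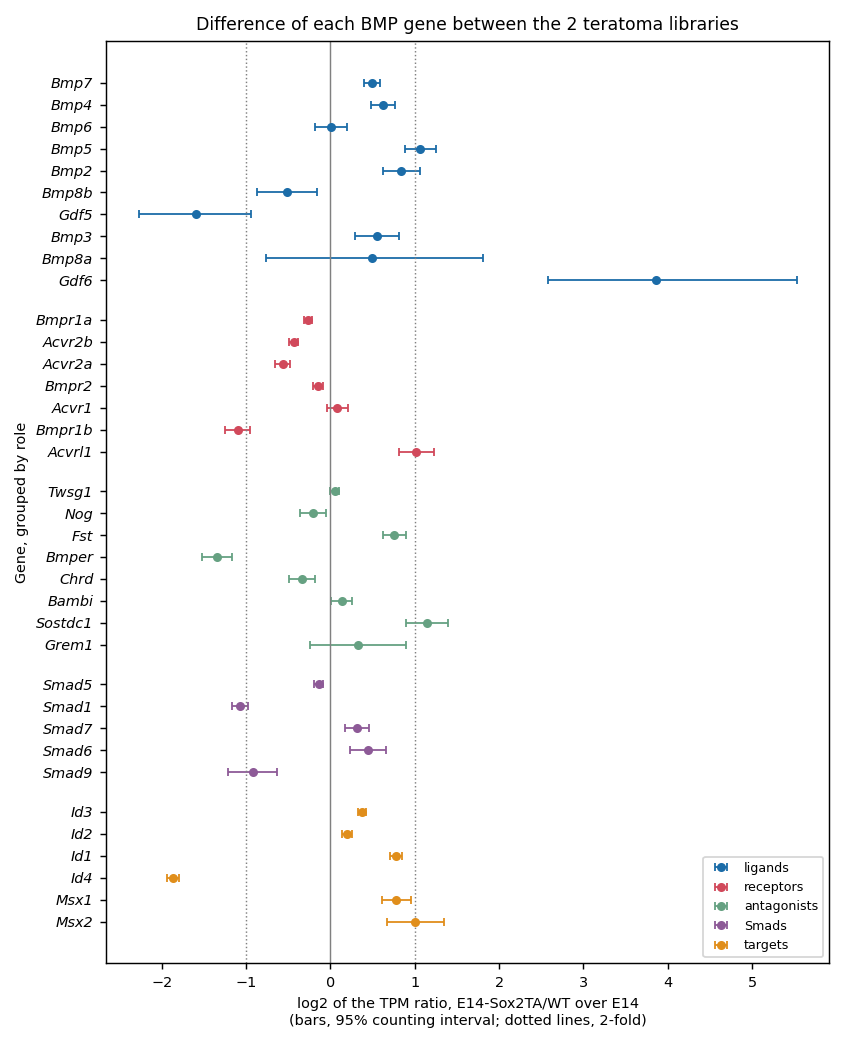
The log2 of the TPM ratio, E14-Sox2TA/WT over E14, for each of the 36 BMP genes by role, with bars for the 95% counting interval, a solid line at equal levels and dotted lines at 2-fold. Most genes lie within 2-fold, and Id4, 3.65-fold lower, lies farthest left, whereas Gdf6, far right at a ratio of 14.6, rests on 5 and 76 reads.

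The 8 antagonists and extracellular modulators summed to 111 TPM in the E14 library against 117 TPM with E14-Sox2TA/WT, and 0 passed the DEG rule. Twsg1, which binds BMPs together with Chordin, made up 48.0% and 47.1% of this sum, at 53.2 and 55.1 TPM (5182 and 5990 reads). Nog, which encodes Noggin, had 14.9 and 12.9 TPM (688 and 665 reads), a ratio of 0.866 (0.777 to 0.965). The ratio of Nog was 0.994 by FPKM and 0.996 (0.894 to 1.11) in reads per library total, so the difference depended on the unit. Chrd, which encodes Chordin, had 8.73 and 6.91 TPM (863 and 634 reads). It shares 239 exon bases with Thpo on the opposite strand. Its FPKM and its reads per library total gave ratios that differed by a factor just above 1.2, the one member past that tolerance. Fst, which encodes Follistatin, an inhibitor of activin and of some BMPs, had 10.9 and 18.5 TPM (704 and 1325 reads), a ratio of 1.69 (1.54 to 1.86). On the log2(TPM + 1) scale its difference was 0.71, or 0.51 relative to the median of its chromosome, 13. Relative to the reads of Nog, those of Fst were 1.95 times (1.69 to 2.25) and those of the ligand Bmp4 were 1.78 times (1.54 to 2.06) as many in the E14-Sox2TA/WT library as in the E14 library.

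The other modulators lay under 10 TPM. Sostdc1, an antagonist known from tooth and hair development, had 4.35 and 9.61 TPM (184 and 452 reads), a ratio of 2.21 (1.86 to 2.64). Bmper, a secreted BMP-binding protein of endothelium and cartilage, had 9.37 and 3.69 TPM (859 and 378 reads), 2.54-fold lower (2.25 to 2.87). Under a 2-fold rule with a minimum of 1 TPM, both would have been called, and 4 of the 36 genes would have been called higher and 5 lower, beside 19.3% of all 18558 genes higher and 18.9% lower. Bambi, a receptor-like protein without a kinase that damps signaling and is itself induced by BMP, had 8.31 and 9.09 TPM (919 and 1190 reads). Grem1, an antagonist of limb and gut mesenchyme, had 0.996 and 1.25 TPM (47 and 65 reads), with an interval of the ratio from 0.848 to 1.86.

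Of the Smads, Smad1 was one of the DEGs. It had 39.8 and 18.9 TPM (2887 and 1532 reads), 2.103-fold lower (1.98 to 2.24). The call depended on the scale, since the difference was 1.83-fold by FPKM, and none of the other scalings tried placed Smad1 past 2-fold. Smad1 lies at chr8:79338395-79399428 of GRCm38, where the median log2 ratio of all genes was -0.48. Relative to that chromosome's median, the log2 ratio of Smad1 was -0.55. Smad5, whose product acts alongside Smad1, had 42.8 and 38.8 TPM (6847 and 6860 reads). Its direction changed with the scale, at a ratio of 0.906 by TPM and 1.04 by FPKM. Within the library the TPM of Smad1 was 0.931 times that of Smad5 for E14 and 0.489 times for E14-Sox2TA/WT. In reads the ratio of these genes was 1.89-fold lower (1.76 to 2.03), independent of library scaling but not of chromosome. Smad5 lies on chromosome 13, where the median log2 ratio of all genes was 0.20. Relative to that median, the log2 ratio of Smad5 was -0.33. The part of the chromosomes in the ratio of Smad1 to Smad5 was not tested. Smad9 was far less abundant, at 1.90 and 0.9999 TPM (278 and 164 reads). Smad1 thus made up 47.1% of the summed TPM of the receptor-activated Smads in the E14 library against 32.3% with E14-Sox2TA/WT. The inhibitory Smads, which BMP signaling itself induces, had ratios above 1. Smad6 had 4.33 and 5.89 TPM (310 and 460 reads), a ratio of 1.36 (1.18 to 1.58), and Smad7 had 6.30 and 7.84 TPM (664 and 936 reads), a ratio of 1.25 (1.13 to 1.38).

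**Figure D3:**
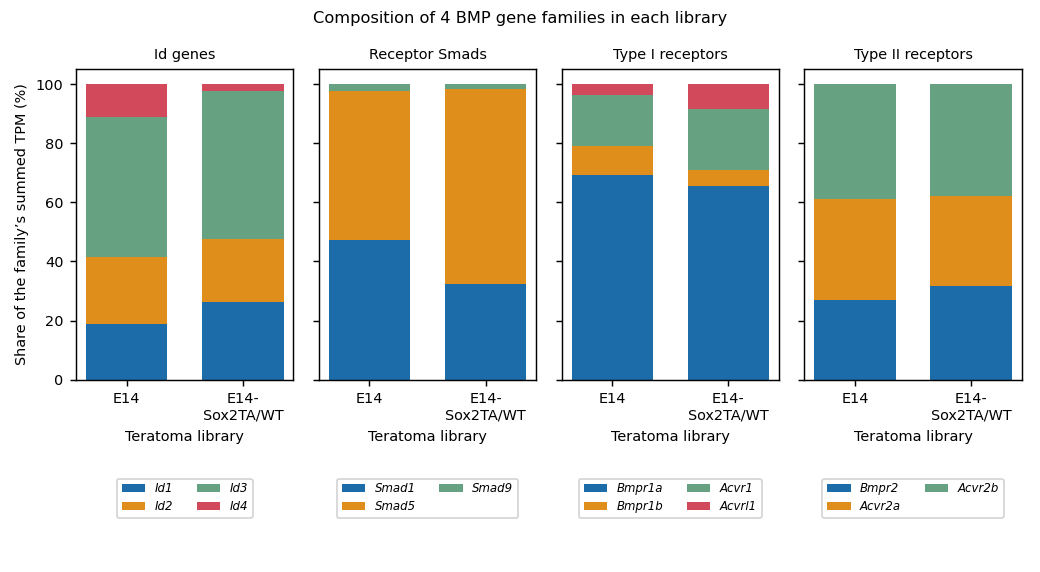
Share of the summed TPM of each family, in percent, held by its genes in the E14 and the E14-Sox2TA/WT teratoma library, for the Id genes, the receptor-activated Smads, the type I and the type II receptors. Id4 held 11.1% of the Id genes for E14 and 2.49% for E14-Sox2TA/WT, Smad1 held 47.1% and 32.3% of the receptor-activated Smads, and Acvr2b held 38.9% and 37.7% of the type II receptors.

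Among the 6 target genes, 5 had a TPM ratio above 1, beside 47.5% of all genes that reached 1 TPM. Id1, Id2 and Id3 were the most abundant of the 36 genes in both libraries. The Id proteins are helix-loop-helix factors without a DNA-binding region that hold back bHLH differentiation factors. Id3 had the highest level of all 36 genes in both libraries, at 284 and 368 TPM (6519 and 9417 reads), a ratio of 1.29 (1.25 to 1.34). Id1 had 113 and 194 TPM (2578 and 4963 reads), a ratio of 1.72 (1.64 to 1.80). Id2 had 137 and 157 TPM (4200 and 5353 reads), a ratio of 1.14 (1.10 to 1.19). Id4, the family member associated with neural progenitors and astrocytes and encoded at chr13:48261116-48266028, had 66.8 and 18.3 TPM (6371 and 1952 reads), 3.65-fold lower (3.46 to 3.84). It was called lower under each scaling, fold threshold and filter that was tried. Relative to the reads of Id3, those of Id4 were 4.71-fold lower (4.44 to 5.01), relative to Id2 they were 4.16-fold lower (3.90 to 4.44), and relative to Id1 they were 6.28-fold lower (5.86 to 6.74). The 4 Id genes thus parted within each library in a way that does not depend on scaling. Their sum was 602 TPM in the E14 library against 737 TPM with E14-Sox2TA/WT, of which Id4 held 11.1% and 2.49%. On the opposite strand, a listed antisense gene that shares 82 exon bases with Id4 had 28 and 0 reads.

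Neural markers had a lower TPM beside Id4. The 6 neural progenitor genes summed to 2725 TPM in the E14 library against 793 TPM with E14-Sox2TA/WT, led by Fabp7 at 2497 and 708 TPM, and the 10 neuron genes summed to 3121 and 498 TPM, led by Tubb3 at 1722 and 170 TPM. None of these genes was at 0 in either library, and their part in the difference of Id4, Bmpr1b or Smad1 was not tested. Msx1 and Msx2 encode homeodomain proteins of limb, facial and dorsal neural tissue and classic BMP targets. Msx1 had 9.19 and 15.8 TPM (427 and 818 reads), a ratio of 1.72 (1.52 to 1.93), and Msx2 had 2.02 and 4.05 TPM (106 and 236 reads), a ratio of 2.004 (1.59 to 2.54). Msx2 lies on chromosome 13, and its log2(TPM + 1) difference was 0.74, or 0.55 relative to that chromosome's median. Of 7 markers of roof plate and dorsal neural tube, where Msx genes are expressed, 5 had a ratio above 1, but the list's summed level was 100.5 TPM in the E14 library against 41.0 TPM with E14-Sox2TA/WT, led by Zic1 at 75.8 and 13.0 TPM.

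Upstream sequence is shown for Id4 and Smad1, which passed the DEG rule, and for the ligand Bmp4 and the modulator Bmper, which differed in opposite directions. RefSeq start sites on GRCm38.p6 were available for 24 of the 36 genes. Each sequence is written 5′ to 3′ on the strand of the gene and holds up to 250 bases before the start site, ending where GENCODE annotates an exon. Capitals mark the motifs GGCGCC and GGAGCC, GC-rich sequences to which BMP-activated Smads can bind, the latter also as GGCTCC on the other strand. The Id4 sequence lies at chr13:48260866-48261115 on the plus strand, that of Smad1 at chr8:79399519-79399678 on the minus strand, that of Bmp4 at chr14:46390670-46390919 on the minus strand and that of Bmper at chr9:23222826-23223075 on the plus strand.
Id4: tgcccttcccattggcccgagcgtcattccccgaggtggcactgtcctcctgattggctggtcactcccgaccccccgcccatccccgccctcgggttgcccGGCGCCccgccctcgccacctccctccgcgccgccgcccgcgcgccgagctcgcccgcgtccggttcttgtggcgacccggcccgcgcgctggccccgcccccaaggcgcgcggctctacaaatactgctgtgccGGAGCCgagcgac
Smad1: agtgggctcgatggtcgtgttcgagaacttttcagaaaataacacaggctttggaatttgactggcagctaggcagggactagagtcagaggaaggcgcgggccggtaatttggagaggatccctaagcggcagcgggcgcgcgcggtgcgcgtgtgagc
Bmp4: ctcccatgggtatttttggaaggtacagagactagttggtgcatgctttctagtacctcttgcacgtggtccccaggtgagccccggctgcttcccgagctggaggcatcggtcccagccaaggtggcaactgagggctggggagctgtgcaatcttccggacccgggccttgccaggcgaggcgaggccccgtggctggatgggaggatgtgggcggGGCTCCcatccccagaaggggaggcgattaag
Bmper: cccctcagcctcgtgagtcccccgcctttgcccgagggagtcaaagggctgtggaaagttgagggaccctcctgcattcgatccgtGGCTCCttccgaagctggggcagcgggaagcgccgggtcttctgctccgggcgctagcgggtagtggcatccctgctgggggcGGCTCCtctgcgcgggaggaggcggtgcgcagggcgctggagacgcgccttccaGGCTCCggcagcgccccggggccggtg

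The Id4 sequence held both motifs, the Bmp4 and Bmper sequences held GGAGCC or its complement, and the Smad1 sequence held neither. The 24 genes had 28 promoters, since some had more than 1 start site. Counted on both strands in the 250 bases before the start, GGCGCC occurred in 8 of the 28, beside 9.59% of all 32851 promoters. GGAGCC occurred in 16 of the 28, beside 26.0% of all promoters. Unlike the printed sequences, these counts kept bases that GENCODE annotates as exons. Of further motifs, GTCTAGAC occurred in 0 of the 28 and 0.167% of all promoters, and CAGACA in 3 of the 28 and 17.1% of all promoters. The promoters of BMP genes were also richer in G and C, with a median of 65.8% against 52.4% over the whole table. GGCGCC occurred upstream of Id2, which had a ratio above 1, as well as of Id4. These are matches of letters and not measurements of binding.

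**Figure D4:**
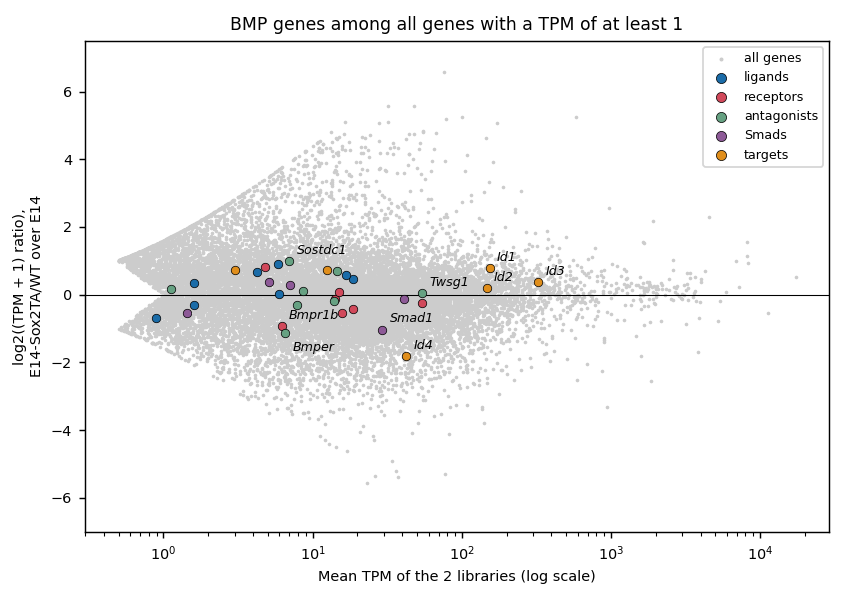
The log2 ratio with 1 added to each TPM, E14-Sox2TA/WT over E14, against the mean TPM of the 2 libraries on a log axis, for all 18558 genes that reached 1 TPM in grey and the 34 BMP genes among them in colour by role. The BMP genes lie inside the cloud of all genes, with Id4 lowest among them at -1.81 and Sostdc1 highest at 0.99.

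A second list held 45 other genes of the pathway, of which 22 reached 10 TPM. Among them 3 were called higher and 8 lower by the DEG rule, 13.6% and 36.4% of those that could be called. Over all 11578 genes that could be called, the shares were 10.8% and 18.7%. Of these, 1 higher and 5 lower genes reached 10 TPM in both libraries, while the others reached it only where they were more abundant. Rgma and Rgmb, coreceptors of the repulsive guidance molecule family that strengthen BMP signaling, were called lower, and their relative Hjv stood at 1.09 and 0.779 TPM. Rgma had 181.6 and 36.2 TPM (15666 and 3483 reads), 5.02-fold lower (4.84 to 5.21). Rgmb had 60.7 and 19.2 TPM (5861 and 2097 reads), 3.17-fold lower (3.01 to 3.33). Neo1, the receptor that binds both of them, had 83.6 and 26.2 TPM (14718 and 5157 reads), 3.19-fold lower (3.09 to 3.29). In contrast, the coreceptor Eng, known from endothelium, had 12.5 and 18.8 TPM, a ratio of 1.51 (1.39 to 1.63), in the same direction as Acvrl1.

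Intracellular regulators that were called lower were Smurf1, Zfp423 and Hipk2. Smurf1, a ubiquitin ligase that targets Smad1 and Smad5, had 32.5 and 15.4 TPM, 2.11-fold lower (2.01 to 2.23), but 1.84-fold by FPKM, and its call was also lost with reads per library total and relative to the median of all genes. Zfp423, a zinc finger partner of BMP Smads, had 32.7 and 11.3 TPM and lies, like Smad1, on chromosome 8. Hipk2, a kinase that acts as a corepressor in BMP signaling, had 37.4 and 8.41 TPM. Smad4, the shared partner of the receptor-activated Smads, stood at 32.6 and 31.5 TPM, and the corepressor Ski at 53.2 and 38.4 TPM. Among the targets, Dlx5, a homeobox gene of forebrain neurons as well as of bone, had 41.6 and 1.88 TPM (1402 and 72 reads), 22.1-fold lower (17.4 to 28.4). The Notch and BMP target Hey1 stood at 54.2 and 46.1 TPM.

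Of the secreted factors in this list, Gdf3, a ligand of pluripotent cells that can also inhibit BMP, had 1.72 and 15.9 TPM (88 and 889 reads), 9.24-fold higher (7.42 to 11.6). All 8 pluripotency genes also had a higher TPM, with a summed level of 78.4 TPM in the E14 library against 1926 TPM with E14-Sox2TA/WT and none at 0, and their part in the value of Gdf3 was not tested. Cer1, an antagonist of BMP and Nodal made by endoderm, had 8.47 and 17.8 TPM, 2.096-fold higher (1.85 to 2.38). Nbl1, another secreted antagonist, had 30.0 and 60.0 TPM, 2.001-fold higher (1.87 to 2.14), just past the threshold. Dand5, a Nodal and BMP antagonist on chromosome 8, had 15.1 and 3.91 TPM, 3.87-fold lower (3.18 to 4.74). Fstl1, the most abundant antagonist of the list, had 194 and 273 TPM, a ratio of 1.41 (1.38 to 1.43), and Bmp1, a protease that cleaves Chordin and procollagen, had 109 and 62.2 TPM, a ratio of 0.569 (0.551 to 0.586).

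**Figure D5:**
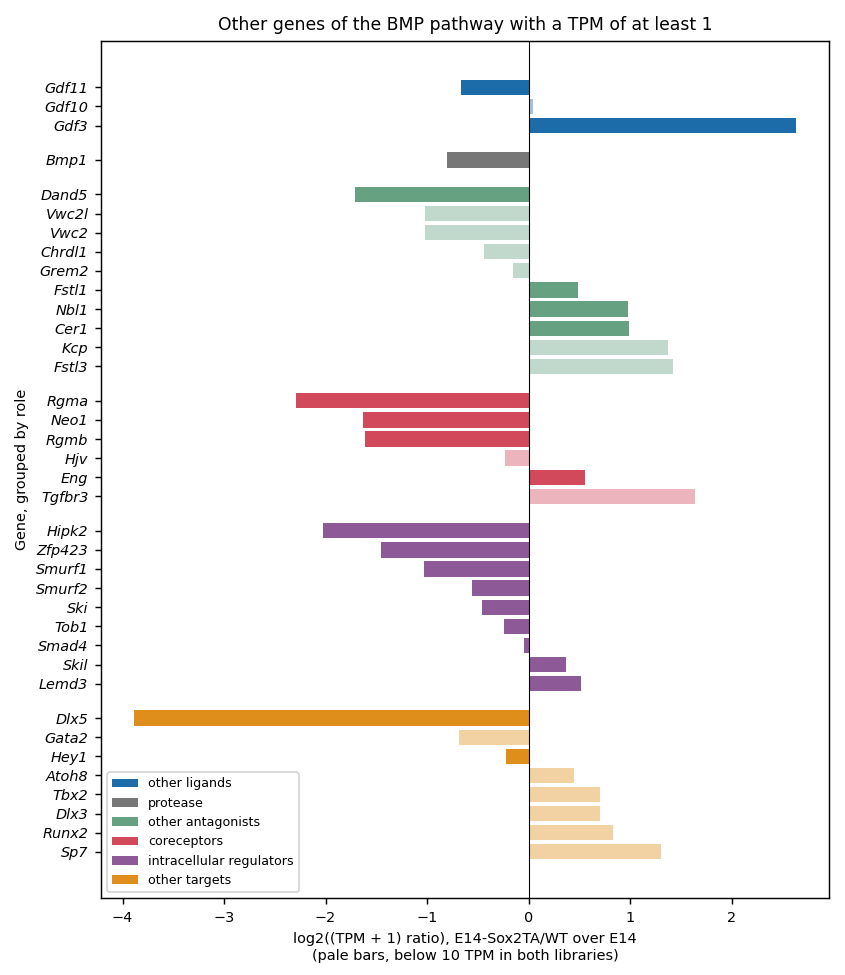
The log2(TPM + 1) difference, E14-Sox2TA/WT minus E14, for the 37 other BMP pathway genes that reached 1 TPM, by role, with pale bars for genes below 10 TPM in both libraries. The longest bars to the left are Dlx5 at -3.89 and Rgma at -2.30, and the longest to the right is Gdf3 at 2.63.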

How the data were processed

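RNA-seq of poly(A) RNA was performed on an Illumina NovaSeq instrument. The submitters' processing notes name bcl2fastq 2.20.0, Trimmomatic, HISAT2 2.1.0 and StringTie 2.1.3b, and the builds hg19 and mm10, and the table is of mm10 genes. The deposited table gives, for each gene, unnormalized read counts beside the FPKM and TPM computed by the authors. Whether counting used strand is not given in the sources used here.

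TPM ratios were computed for 45777 genes, of which 45679 matched RefSeq on GRCm38. DEGs had to differ by more than 2-fold and to reach 10 TPM in either library. Medians used log2 with 1 added to each TPM and genes with a TPM of at least 1. Ratios between 2 genes used conditional 95% intervals of read counts. Marker and pathway lists were assembled by hand, and members and lists were chosen with earlier results of these data known. Every member was named, as were other pathway genes called by the DEG rule or at a TPM of at least 50. Eng, Smad4, Hjv, Runx2, Sp7, Ibsp, Acan, Matn3, Comp and Matn1 were chosen after their values were seen. The same holds for Cdh5, Kdr, Egfl7, Col9a1, Col9a2, Col9a3, Col11a2, Cnmd and Hapln1. No statistical test was run, since there was 1 library per group. Alternatives covered filter, fold threshold, pseudocount and scaling, including edgeR TMM factors. The scripts were tested on simulated data. Computation used R 4.3.3 with edgeR 4.0.16, and Python 3.11.15 with scipy 1.17.1, matplotlib 3.10.9, pandas 2.3.3 and numpy 2.4.6.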

Additional observations from a re-analysis of the deposited data

How the results depend on the processing

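No paired analysis was possible because there was 1 library per group, and no library could be left out. Of 104 alternative values of the counts and medians, 87 stayed within 1.5 times the count or within the spread of the list, and 17 did not. All 17 were counts. For the medians by role, that spread ran from the lowest to the highest gene. A median could thus change sign and still be taken as unmoved, so the 87 say little about how stable the medians were. The BMP genes called, 0 higher and 2 lower, became 4 higher and 5 lower with the minimum lowered to 1 TPM, 5 and 5 when unfiltered, and 4 higher at a fold change above 1.5. Of the lower genes, only Id4, 1 gene, was called at a fold change above 3, with FPKM, with reads per library total, with median-of-ratios factors, with TMM, relative to the median of all genes and where the entire counting interval of reads per library total had to pass 2-fold. The other pathway genes, 3 higher and 8 lower, became 9 higher with the minimum lowered to 1 TPM, 11 higher when unfiltered, 1 higher and 5 lower where both libraries had to reach 10 TPM, and 1 higher at a fold change above 3. Over the Smads, the median of -0.14 became 0.054 with FPKM and 0.045 with reads per library total. For single members, 58 of 180 alternative values moved beyond counting error, and 3 changed sign, for Bmpr2 and Smad5 with FPKM and for Bmp6 relative to its chromosome. For 5 ratios between 2 members, TPM in place of reads, chosen after seeing the data, gave values within the counting intervals of the reads. The TPM and read ratios of these genes were nearly proportional, so this outcome was close to fixed beforehand and is no check of stability. Part of each shift with FPKM is the constant factor of 0.871 between the units, a log2 of -0.20. For medians and single genes, 1 was also added to each FPKM, which is a smaller number than the TPM of the same gene. That shrank the differences of scarce genes further on FPKM, as for Gdf5 from -0.69 to -0.37. The cause of the other shifts was not tested, other than fewer or more genes passing a filter or threshold. Across units, the median of all genes moved from -0.058 on TPM to 0.11 on FPKM.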

Other observations

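Genes of hypertrophic cartilage and bone, in which BMP signaling acts, were measured as a list of 9. Of these, 8 had a higher TPM with E14-Sox2TA/WT. Spp1, a matrix protein of bone that macrophages also make, had 36.7 and 340 TPM, and Alpl, the bone alkaline phosphatase that pluripotent cells also express, had 23.6 and 62.2 TPM. Ibsp, bone sialoprotein, had 0.659 and 12.2 TPM, so it reached 10 TPM only where it was high. Of the osteoblast regulators in the pathway list, Runx2 had 0.927 and 2.42 TPM, a ratio of 2.61 (2.14 to 3.21), and Sp7 had 0.428 and 2.53 TPM, a ratio of 5.92 (4.04 to 8.95), whereas Dlx5 was 22.1-fold lower. Of 12 chondrocyte genes, 5 had a TPM ratio above 1 and 7 below 1. The counting interval on the TPM scale lay above 1 for 4 and below 1 for 3. In reads per library total it lay above 1 for 7 and below 1 for 2, beside 49.1% and 37.8% of all genes that reached 1 TPM. Acan had 0.252 and 1.01 TPM, Matn3 had 0.382 and 1.67 TPM and Comp had 0.159 and 0.742 TPM, and Matn1 had 0 and 46 reads. All of these lay below 10 TPM in both libraries. Of the genes with a ratio below 1, Col9a3 had 19.9 and 12.4 TPM, Col9a2 had 15.8 and 15.5 TPM and Col9a1 had 14.3 and 13.7 TPM. Col11a2 had 5.28 and 4.59 TPM, Cnmd had 3.74 and 3.09 TPM and Hapln1 had 1.80 and 1.52 TPM. Over the 10 chondrocyte genes that reached 1 TPM, the median difference was -0.10 on the log2 scale. Sox9 had 44.1 and 16.9 TPM while Col2a1 had 58.0 and 74.8 TPM.

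Of 8 squamous epithelium genes, 6 had a higher TPM, with a summed level of 230 TPM in the E14 library and 450 TPM in the E14-Sox2TA/WT library. Krt5 had 25.1 and 127 TPM, while Krt15 had 151 and 178 TPM. Of 6 smooth muscle genes, 5 had a ratio above 1 and 1 was called higher, Tagln, at 15.0 and 63.2 TPM. All 8 macrophage genes had a ratio above 1, led by Lyz2 at 457 and 943 TPM. Over all genes that reached 1 TPM, 47.5% had a TPM ratio above 1.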
